A study of Mus musculus with 8 samples.

Results

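The 38 genes described here encode the T cell receptor (TCR) complex and the proteins that carry its signal from the membrane: 5 receptor chains, 4 further surface receptors, 5 enzymes (4 kinases and 1 phospholipase), 10 adaptors and exchange factors, 9 negative regulators and 5 downstream effectors. They were chosen by symbol, and all 38 were found among the 55359 genes that the tables list. RNA sequencing measured them in 8 samples of mouse thymocytes from animals 5 weeks old. The cells were sorted as CD4 and CD8 double positive (DP) with TCR beta at the surface absent, low or intermediate. The 4 control samples, replicates 1 to 4, had the genotype LSL-Sting1-N153S/+ and no Cre. In this allele a stop cassette flanked by loxP sites precedes a coding sequence for STING with the N153S substitution. The 4 Lck-cre samples, replicates 5 to 8, had the genotype LSL-Sting1-N153S;Lck-cre, so that Cre recombinase under the Lck promoter, active from early stages of the T cell lineage, can remove the cassette. Replicates 1 and 5 were female and the other 6 were male. The labels do not say whether each sample is 1 animal, and the p-values below therefore reflect only how far these samples spread, which may be technical.

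The TCR has no enzyme activity of its own. The alpha and beta chains bind peptide on MHC molecules, and the CD3 chains (Cd3d, Cd3e, Cd3g and the zeta chain Cd247) carry the tyrosine motifs that Lck phosphorylates and Zap70 binds. Zap70 then phosphorylates Lat and Lcp2 (SLP-76), on which the phospholipase Plcg1 and exchange factors assemble, leading to calcium, Ras, NF-kB and NFAT signals. In DP thymocytes the strength of this signal decides between death by neglect, positive selection and deletion.

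Levels are given as FPKM, which scales the fragments of a gene to its length and to the mapped fragments of the sample, so that levels of different genes can be compared. Changes are differences in log2(FPKM + 0.5), Lck-cre minus control, from a limma fit over all 12337 tested genes with sex as a term. A gene was called changed where its p-value, adjusted over all of them by the Benjamini-Hochberg method, was under 0.05. Errors of levels are SDs over 4 samples. The tables hold no read counts, so the depth is unknown, and 1 FPKM most often stood for a mean coverage per base of 7.53 to 7.89 (controls) or 7.65 to 7.86 (Lck-cre). Sting1, which checks the labels, lay at 15.3, 11.6, 13.4 and 11.9 FPKM in the controls and at 221, 85.4, 129.6 and 232 FPKM in the Lck-cre samples (log2 change 3.52, adjusted p = 0.00213 by limma), lowest among the Lck-cre samples in replicate 6. Of the markers of DP cells, Cd4, Cd8a, Cd8b1, Rag1, Rag2, Cd1d1 and Ptcra were each above 25 FPKM in all 8 samples.

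As an example of the sequences in front of these genes, the 250 bases before the transcription start are shown for the 2 Src family kinases, Lck and Fyn. Lck is shown because its promoter drives Cre here, and Fyn because it fell while Lck did not pass the test. RefSeq lists 2 starts for Lck, 15269 bases apart, and 1 for Fyn. Sequences are from RefSeq in build GRCm38.p6, 5′ to 3′ on the strand of the gene. The first Lck start follows chr4:129573642-129573891 (minus strand), the second chr4:129558373-129558622 (minus strand), and that of Fyn chr10:39369549-39369798 (plus strand). The files name no build for their own coordinates, and positions given further on are as they list them and are not to be set against these. Capitals mark matches on either strand to 3 motifs, CAGNTG (bound by E proteins), TGTGGT (RUNX proteins) and CCGGAA (ETS proteins).
Lck, first start: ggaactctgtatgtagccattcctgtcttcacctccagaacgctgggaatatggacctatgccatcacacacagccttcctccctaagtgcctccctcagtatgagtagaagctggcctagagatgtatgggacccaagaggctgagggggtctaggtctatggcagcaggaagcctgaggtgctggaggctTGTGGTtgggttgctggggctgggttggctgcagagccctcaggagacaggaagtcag
Lck, second start: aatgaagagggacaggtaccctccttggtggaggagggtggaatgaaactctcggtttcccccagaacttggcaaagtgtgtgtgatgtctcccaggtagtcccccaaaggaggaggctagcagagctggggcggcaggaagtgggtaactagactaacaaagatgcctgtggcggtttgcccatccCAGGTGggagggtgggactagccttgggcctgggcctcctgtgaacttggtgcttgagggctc
Fyn: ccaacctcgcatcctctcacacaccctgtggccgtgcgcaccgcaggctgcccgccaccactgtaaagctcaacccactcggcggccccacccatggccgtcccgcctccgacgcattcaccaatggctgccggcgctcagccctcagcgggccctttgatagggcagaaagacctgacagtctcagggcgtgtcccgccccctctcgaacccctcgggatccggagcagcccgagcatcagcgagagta
The first Lck window held 1 RUNX match, the second held 1 E protein match, and the Fyn window held no match to these letters. RefSeq gave 45 start sites for 30 of the 38 members. Of these 45 windows, 21 held CAGNTG, 4 held TGTGGT and 3 held CCGGAA, while the shares among all 32851 windows were 44.8%, 14% and 12%. These are matches of letters and not measured binding sites. No entry was found for Trac, Cd2, Cd6, Cd28, Tespa1, Ptpn2, Malt1 and Nfatc1.

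The comparison asked which of these transcripts were at another level in DP thymocytes carrying Lck-cre than in those of the controls. The changes were small and mostly downward. In the Lck-cre samples 13 of the 38 members fell and 1, the phosphatase gene Ptpn2, rose, with log2 changes from -0.60 (Trac) to 0.26 (Ptpn2). Of all 12337 tested genes 25.8% were called, 10.4% lower and 15.4% higher, against 36.8% of the members, 34.2% lower and 2.63% higher. The change was below 0 in 34 of 38 members, with a median of -0.17, and in 48% of all genes tested, with a median of 0.012. The groups did not overlap, with Lck-cre lower, in 12 of 38 members and in 12.3% of all genes. The members were chosen with earlier results of these data known, so these shares are a description and not a test. With TPM values the calls were 15 members lower and 2067 genes lower against 1300 higher over the whole table, where FPKM gave 1279 lower and 1901 higher. All 38 members passed the minimum of 1 FPKM, and the lowest value of any member in any sample was 3.30 FPKM (Nfatc2). Bulk RNA cannot tell fewer cells of a type from less RNA per cell.

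The number of members called depended on single samples, and so did the number called among all 12337 genes. The members called were 2 without control replicate 1 or Lck-cre replicate 5, the 2 females. Among all genes 653 and 647 were then called, in place of 3180. With sex in the fit, leaving out either female leaves the contrast to 3 males against 3. The number of members was also 2 (Tespa1 and Cbl) in males alone, where the calls of the other 12 ended and 652 of all genes were called. It was 3 without control replicate 2, 5 without control replicate 4, 5 without Lck-cre replicate 7 and 6 without Lck-cre replicate 8. The calls among all genes were 1256, 2111, 1802 and 2079 in these settings. The members called were 12 without control replicate 3 and 16 without Lck-cre replicate 6, with 3009 and 3889 of all genes. With no filter on low values, which raised the number of tested genes to 28851, 2 members and 1056 of all genes were called. The direction of the 14 called members was the same under all 18 alternatives, and only Tespa1 was called under every one of them.

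**Figure D1:**
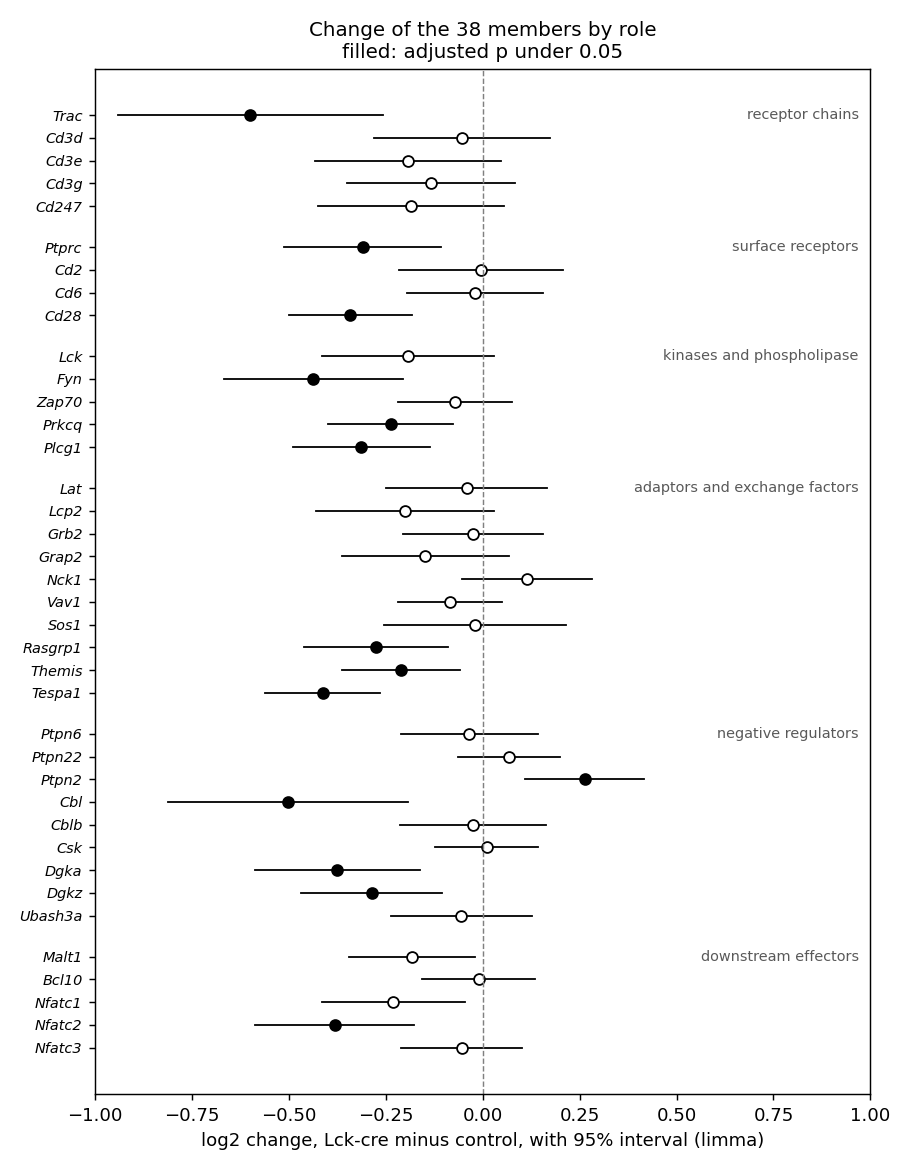
Log2 change of each member (horizontal axis, Lck-cre minus control) with its 95% interval from limma, by role; filled points had an adjusted p under 0.05. Of the 14 filled points 13 lie below 0, and Ptpn2 alone lies above 0.

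Among the receptor chains, the constant gene of the alpha chain fell and the CD3 chains did not pass the test. Trac (ENSMUSG00000076928.6, chromosome 14, 54457978 to 54461663, plus strand) lay at 575, 517, 512 and 492 FPKM in the controls and at 300.1, 455, 379 and 274 FPKM in the Lck-cre samples. The groups did not overlap, and Lck-cre replicate 6 lay nearest to the controls. Trac fell from 524 ± 35.4 to 352 ± 81.7 FPKM (SD, n = 4 each; log2 change -0.60, SE 0.15, adjusted p = 0.0223 by limma), a 1.49-fold difference between means. The call of Trac ended with no filter (adjusted p = 0.0936) and when control replicate 1 (0.0983) or 2 (0.0597) or Lck-cre replicate 5 (0.0996) was left out.

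Cd3d, a signalling chain that pairs with Cd3e, lay at 252, 220.5, 261 and 220.1 FPKM in the controls and at 223, 243, 257 and 198 FPKM in the Lck-cre samples, with the groups interleaved (log2 change -0.053, 95% interval -0.28 to 0.17, adjusted p = 0.723 by limma). Cd3e, which pairs with both Cd3d and Cd3g, lay at 429.8, 326, 371 and 318 FPKM in the controls and at 295, 355, 307 and 301 FPKM in the Lck-cre samples. In 3 of the 4 Lck-cre samples Cd3e was below every control, and replicate 6 was within their range (log2 change -0.19, 95% interval -0.43 to 0.047, adjusted p = 0.2 by limma). Cd3g lay at 473, 414, 476 and 392 FPKM in the controls and at 398, 417, 433 and 350.5 FPKM in the Lck-cre samples, and Lck-cre replicate 8 alone was below the lowest control (log2 change -0.13, 95% interval -0.35 to 0.083, adjusted p = 0.32 by limma). The zeta chain Cd247 lay at 331, 303, 354 and 286 FPKM in the controls and at 270.5, 314, 301 and 238 FPKM in the Lck-cre samples, with Lck-cre replicates 5 and 8 below every control (log2 change -0.19, 95% interval -0.43 to 0.056, adjusted p = 0.218 by limma). With quantile normalization Cd3g was called lower (adjusted p = 0.0264). Genes on the opposite strand overlap Cd3e and Cd247 in the tables, and since strandedness is not given, their reads cannot be told apart.

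A ratio of 2 transcripts within a sample does not depend on the scaling between samples. Trac over the mean of the 4 CD3 chains was 1.55, 1.64, 1.40 and 1.62 in the controls and 1.01, 1.37, 1.17 and 1.01 in the Lck-cre samples. The ratio was lower in each Lck-cre sample than in any control, with replicate 6 closest to them. This ratio was chosen after the values were seen and has no test.

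**Figure D2:**
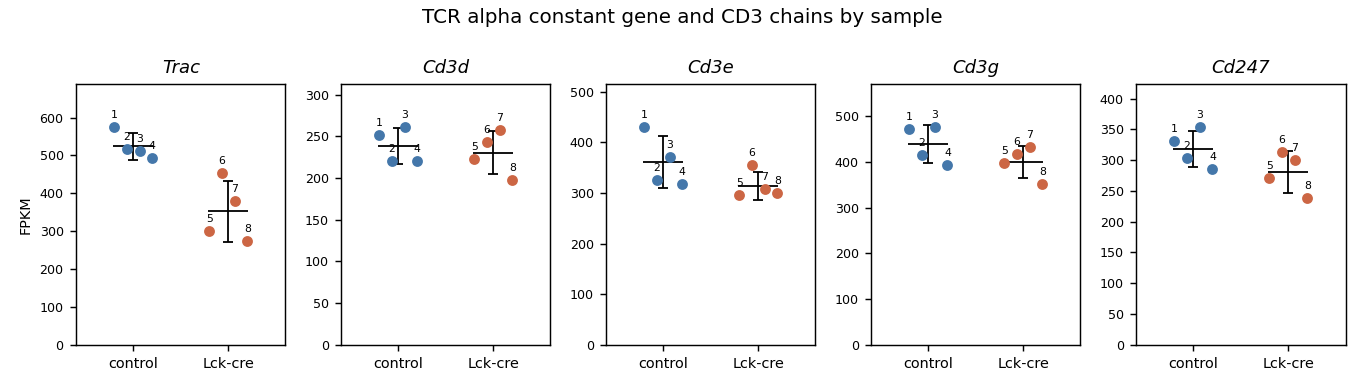
FPKM (vertical axis, from 0) of Trac and the 4 CD3 chains in each sample, numbered by replicate, with the group mean and SD (n = 4). The groups are apart for Trac and overlap for each CD3 chain.

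Of the 4 other surface receptors, Ptprc and Cd28 fell. Ptprc, or CD45, is the phosphatase that removes the inhibitory phosphate from Lck. It lay at 356, 381, 314 and 348 FPKM in the controls and at 279, 318, 271 and 260.3 FPKM in the Lck-cre samples, so that Lck-cre replicate 6 was within the control range. Ptprc fell from 349.8 ± 27.5 to 282 ± 25.0 FPKM (log2 change -0.31, SE 0.089, adjusted p = 0.0342 by limma). Cd28, the costimulatory receptor for B7 ligands, lay at 65.0, 58.5, 54.2 and 50.5 FPKM in the controls and at 47.9, 47.0, 43.2 and 41.1 FPKM in the Lck-cre samples, without overlap. Its fall was from 57.1 ± 6.20 to 44.8 ± 3.17 FPKM (log2 change -0.34, SE 0.071, adjusted p = 0.0128 by limma). The adhesion receptors Cd2 (59.7 ± 5.25 and 59.6 ± 6.76 FPKM; log2 change -0.0048, 95% interval -0.22 to 0.21, adjusted p = 0.974 by limma) and Cd6 (154 ± 11.5 and 152 ± 14.5 FPKM; log2 change -0.019, 95% interval -0.19 to 0.16, adjusted p = 0.873 by limma) overlapped between groups. The call of Cd28 ended without control replicate 1 (adjusted p = 0.0609) or Lck-cre replicate 5 (0.0611), and that of Ptprc ended with no filter and when control replicate 1, 2 or 4 or Lck-cre replicate 5, 7 or 8 was left out (0.0748 to 0.117).

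Of the kinases and the phospholipase, Fyn, Prkcq and Plcg1 fell, while Lck and Zap70 did not pass the test. Lck, the kinase that starts the signal, was the 21st highest of the 12337 tested genes by control mean. It lay at 1288, 1266, 1170.3 and 1337 FPKM in the controls and at 1033, 1249, 1129.9 and 1027 FPKM in the Lck-cre samples, with 3 of the 4 Lck-cre samples below every control and replicate 6 within the control range (log2 change -0.19, 95% interval -0.41 to 0.029, adjusted p = 0.169 by limma). With quantile normalization Lck was called lower (adjusted p = 0.0456). FPKM does not tell which Lck promoter a transcript came from. Zap70, which binds the phosphorylated CD3 motifs, lay at 128, 119, 117 and 121 FPKM in the controls and at 117, 120.3, 120.1 and 105 FPKM in the Lck-cre samples and overlapped (log2 change -0.072, 95% interval -0.22 to 0.075, adjusted p = 0.431 by limma).

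Fyn, the other Src family kinase of T cells, lay at 52.4, 43.6, 47.5 and 45.8 FPKM in the controls and at 33.3, 39.7, 37.7 and 29.2 FPKM in the Lck-cre samples. All 4 Lck-cre samples were below all controls, with replicate 8 lowest and replicate 6 highest. Fyn fell from 47.3 ± 3.72 to 35.0 ± 4.71 FPKM (log2 change -0.44, SE 0.10, adjusted p = 0.0178 by limma). The ratio of Lck to Fyn was 24.6, 29.0, 24.6 and 29.2 in the controls and 31.0, 31.5, 30.0 and 35.2 in the Lck-cre samples, higher in every Lck-cre sample than in any control, a ratio also chosen after the values were seen. The call of Fyn ended with no filter (adjusted p = 0.0719) and without control replicate 1 (0.0803) or Lck-cre replicate 5 (0.0806).

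Prkcq, or protein kinase C theta, which links diacylglycerol to NF-kB, lay at 57.8, 54.1, 52.7 and 53.1 FPKM in the controls and at 45.9, 47.9, 49.8 and 41.1 FPKM in the Lck-cre samples. It fell from 54.4 ± 2.32 to 46.2 ± 3.73 FPKM without overlap (log2 change -0.24, SE 0.071, adjusted p = 0.0386 by limma). Plcg1, which makes diacylglycerol and inositol trisphosphate, lay at 119, 120.5, 96.5 and 113 FPKM in the controls and at 94.9, 94.2, 85.7 and 85.2 FPKM in the Lck-cre samples. The lowest control of Plcg1, replicate 3, was just above the highest Lck-cre sample, and the fall was from 112 ± 10.9 to 90.0 ± 5.31 FPKM (log2 change -0.31, SE 0.079, adjusted p = 0.0222 by limma). The call of Prkcq ended with no filter, with no trend in the variance and when any control or Lck-cre replicate 5 or 8 was left out (adjusted p of 0.0572 to 0.142). That of Plcg1 ended with no filter and when control replicate 1, 2 or 4 or Lck-cre replicate 5, 7 or 8 was left out (0.0512 to 0.0797).

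Among the 10 adaptors and exchange factors, Rasgrp1, Themis and Tespa1 fell, and the other 7 did not pass the test. Lat, the membrane scaffold, lay at 999, 898, 898 and 992 FPKM in the controls and at 918, 1029.7, 885 and 852 FPKM in the Lck-cre samples, with Lck-cre replicate 6 the highest of all 8 samples (log2 change -0.041, 95% interval -0.25 to 0.17, adjusted p = 0.767 by limma). Lcp2, the cytosolic scaffold SLP-76, lay at 132, 121, 117 and 102 FPKM in the controls and at 103, 118, 103 and 87.9 FPKM in the Lck-cre samples, where the groups overlapped (log2 change -0.20, 95% interval -0.43 to 0.029, adjusted p = 0.168 by limma). Lcp2 was called lower without Lck-cre replicate 6 (adjusted p = 0.0401). Grap2 (Gads), which joins Lcp2 to Lat, lay at 191 ± 10.8 and 173 ± 21.2 FPKM (log2 change -0.15, 95% interval -0.36 to 0.067, adjusted p = 0.266 by limma). Grb2, the adaptor that brings Sos1 to Lat, lay at 64.3 ± 4.23 and 63.4 ± 6.83 FPKM (log2 change -0.025, 95% interval -0.21 to 0.16, adjusted p = 0.84 by limma), and the Ras exchange factor Sos1 at 5.30 ± 0.503 and 5.23 ± 0.575 FPKM (log2 change -0.021, 95% interval -0.26 to 0.21, adjusted p = 0.901 by limma). Vav1, an exchange factor phosphorylated after receptor engagement, lay at 117 ± 6.20 and 111 ± 4.11 FPKM (log2 change -0.086, 95% interval -0.22 to 0.048, adjusted p = 0.302 by limma). Nck1, an adaptor that links the receptor to actin, lay at 8.63 ± 0.343 and 9.39 ± 0.674 FPKM (log2 change 0.11, 95% interval -0.054 to 0.28, adjusted p = 0.276 by limma). In each of these 5 genes the interval of the change includes 0.

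Tespa1 (ENSMUSG00000034833.11, chromosome 10, 130158739 to 130199980, plus strand), a thymocyte protein that acts with Plcg1 in positive selection, had the smallest adjusted p of the members. It lay at 71.7, 65.3, 58.2 and 58.9 FPKM in the controls and at 48.5, 46.9, 45.6 and 48.7 FPKM in the Lck-cre samples. The 4 Lck-cre samples lay close together, between 45.6 and 48.7 FPKM, and below all controls. Tespa1 fell from 63.5 ± 6.34 to 47.4 ± 1.48 FPKM (log2 change -0.41, SE 0.066, adjusted p = 0.00765 by limma), and over the 18 alternatives its adjusted p was 0.00515 to 0.0436.

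Rasgrp1, the Ras exchange factor activated by diacylglycerol, lay at 166, 155, 147 and 139.9 FPKM in the controls and at 133, 138, 124 and 107 FPKM in the Lck-cre samples. It fell from 152 ± 11.1 to 126 ± 13.3 FPKM without overlap, with Lck-cre replicate 8 lowest (log2 change -0.28, SE 0.082, adjusted p = 0.0379 by limma). Themis, a T lineage protein needed for positive selection, lay at 129.9, 136, 121 and 138 FPKM in the controls and at 119, 117, 111 and 106 FPKM in the Lck-cre samples. Its fall, from 131 ± 7.64 to 113 ± 5.86 FPKM, was just past the threshold (log2 change -0.21, SE 0.068, adjusted p = 0.0474 by limma). The call of Rasgrp1 ended with no filter, with no trend in the variance and without any 1 sample other than Lck-cre replicate 6 (adjusted p of 0.0519 to 0.124). That of Themis ended with no filter, with no trend and when control replicate 1, 2 or 4 or Lck-cre replicate 5, 7 or 8 was left out (0.0661 to 0.13).

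Genes that restrain the signal went both ways: Cbl, Dgka and Dgkz fell, Ptpn2 rose, and 5 did not pass the test. Cbl, a ubiquitin ligase that acts on Zap70 and the receptor, lay at 101, 154, 106 and 134 FPKM in the controls and at 98.0, 80.6, 78.9 and 86.5 FPKM in the Lck-cre samples. Control replicates 2 and 4 were well above replicates 1 and 3, and Lck-cre replicate 5 came close to the lower pair. Cbl fell from 123 ± 24.8 to 86.0 ± 8.63 FPKM (log2 change -0.50, SE 0.14, adjusted p = 0.0286 by limma). Its relative Cblb lay at 7.33 ± 0.507 and 7.19 ± 0.495 FPKM (log2 change -0.026, 95% interval -0.21 to 0.16, adjusted p = 0.839 by limma). Cbl remained called in males alone (adjusted p = 0.0427), and its call ended with no filter and when control replicate 2 or 4 or Lck-cre replicate 7 or 8 was left out (0.0572 to 0.107).

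Dgka and Dgkz are diacylglycerol kinases, which remove the lipid that activates Rasgrp1 and Prkcq. Dgka lay at 249, 216, 191 and 209 FPKM in the controls and at 164, 191, 159 and 152 FPKM in the Lck-cre samples, where the lowest control and the highest Lck-cre sample were nearly equal. It fell from 216 ± 24.4 to 167 ± 16.8 FPKM (log2 change -0.37, SE 0.094, adjusted p = 0.0223 by limma). Dgkz lay at 339, 323, 287 and 347 FPKM in the controls and at 255, 278, 252 and 275 FPKM in the Lck-cre samples. It fell from 324 ± 26.7 to 265 ± 13.2 FPKM without overlap (log2 change -0.29, SE 0.081, adjusted p = 0.032 by limma). A gene on the opposite strand, Gm9821, overlaps Dgkz and reached 167 FPKM, so reads of the pair cannot be told apart. The same holds at lower levels for Dgka and Pmel (up to 3.43 FPKM) and for Plcg1 and Zhx3 (up to 9.51 FPKM). It also holds for Nfatc3 and Esrp2 (up to 12.9 FPKM) and for Lcp2 and 4930469K13Rik (up to 1.32 FPKM). The call of Dgka ended with no filter and when control replicate 1, 2 or 4 or Lck-cre replicate 5, 7 or 8 was left out (adjusted p of 0.0501 to 0.1), and that of Dgkz with no filter and when control replicate 1, 2 or 4 or Lck-cre replicate 5 or 7 was left out (0.0818 to 0.131).

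Ptpn2, a phosphatase that acts on Lck and Fyn and on JAK and STAT proteins, was the 1 member that rose. It lay at 14.8, 15.1, 14.9 and 15.0 FPKM in the controls and at 17.6, 16.7, 18.1 and 19.8 FPKM in the Lck-cre samples. The controls were tightly grouped, and every Lck-cre sample was above them. Ptpn2 rose from 14.9 ± 0.125 to 18.1 ± 1.34 FPKM (log2 change 0.26, SE 0.068, adjusted p = 0.0247 by limma). The call ended with TPM values (adjusted p = 0.0736), with no filter and when control replicate 1, 2 or 4 or Lck-cre replicate 5, 7 or 8 was left out (0.054 to 0.0804). Ptpn6, or SHP-1, lay at 98.7 ± 10.1 and 95.9 ± 0.323 FPKM (log2 change -0.035, 95% interval -0.21 to 0.14, adjusted p = 0.769 by limma). Csk, which phosphorylates the inhibitory tyrosine of Lck, lay at 114 ± 4.81 and 115 ± 4.71 FPKM, and its partner Ptpn22 at 56.6 ± 3.98 and 59.3 ± 2.70 FPKM, with 95% intervals of the log2 change of -0.12 to 0.14 and -0.064 to 0.20. Ubash3a, a regulator of the STS family, lay at 15.0 ± 1.49 and 14.4 ± 1.18 FPKM (log2 change -0.055, 95% interval -0.24 to 0.13, adjusted p = 0.635 by limma).

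Of the downstream effectors, 1 of 5 fell. Nfatc2, an NFAT transcription factor that calcium activates through calcineurin, lay at 5.63, 5.19, 4.15 and 4.92 FPKM in the controls and at 4.46, 3.53, 3.30 and 3.51 FPKM in the Lck-cre samples, the lowest level of the members. Lck-cre replicate 5 was within the control range. Nfatc2 fell from 4.97 ± 0.623 to 3.70 ± 0.518 FPKM (log2 change -0.38, SE 0.091, adjusted p = 0.019 by limma). Nfatc3, the NFAT gene with the highest level here, lay at 128 ± 5.67 and 124 ± 8.90 FPKM (log2 change -0.054, 95% interval -0.21 to 0.10, adjusted p = 0.58 by limma). Nfatc1 (29.1 ± 1.94 and 24.8 ± 2.60 FPKM; adjusted p = 0.0652 by limma) and Malt1, the paracaspase of the NF-kB branch (6.85 ± 0.254 and 5.98 ± 0.334 FPKM; adjusted p = 0.0881), were nearest to the threshold from outside. Nfatc1 was called lower with TPM values (0.0281), median-of-ratios scaling (0.0461), quantile normalization (0.0449) and without Lck-cre replicate 6 (0.0235), and Malt1 with TPM values (0.0418). Bcl10, the partner of Malt1, lay at 24.4 ± 1.39 and 24.2 ± 0.984 FPKM (log2 change -0.011, 95% interval -0.16 to 0.13, adjusted p = 0.917 by limma). The call of Nfatc2 ended with no filter and when control replicate 1 or 2 or Lck-cre replicate 5 or 7 was left out (0.0531 to 0.0631).

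**Figure D3:**
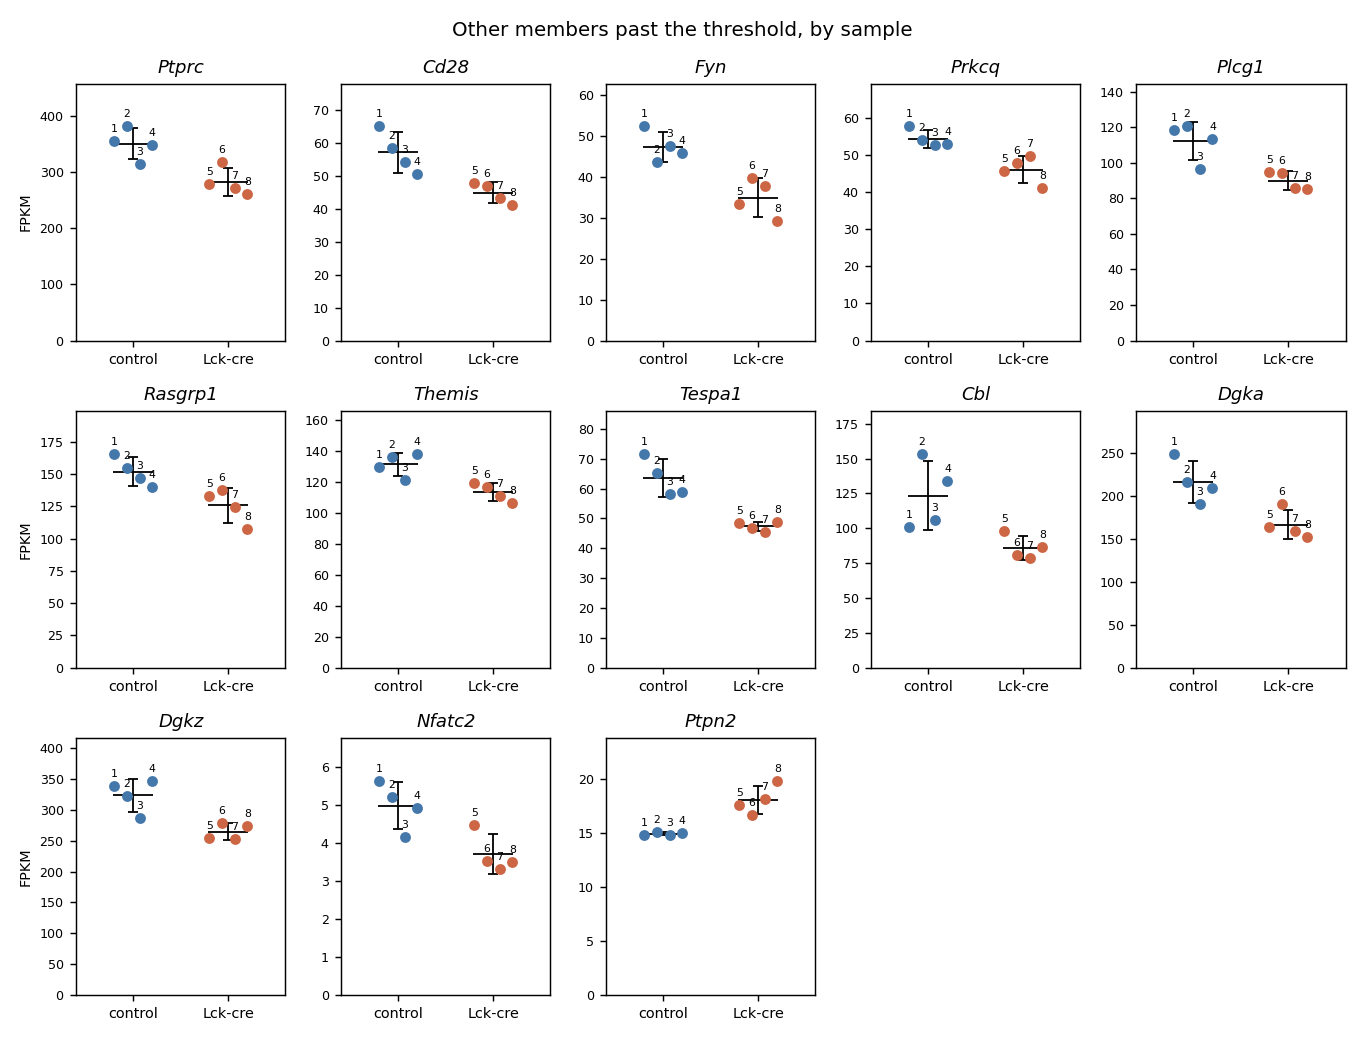
FPKM (vertical axis, from 0) in each sample, numbered by replicate, with the group mean and SD (n = 4), for the 13 called members other than Trac. Ptpn2 is higher in Lck-cre, the other 12 are lower, and Ptprc and Nfatc2 overlap between groups.

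The Lck-cre samples differed among themselves. Over all 38 members, the median log2 difference from the control mean was -0.14, -0.064, -0.13 and -0.26 in replicates 5 to 8. Replicate 8 had the lowest value of the 4 Lck-cre samples in 24 of 38 members, and replicate 6 had the highest in 16. Sting1 was also lowest in replicate 6 and highest in replicate 8. With 4 samples no relation between Sting1 and these genes was tested. The control samples lay between -0.050 and 0.075, the highest being the female, replicate 1.

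**Figure D4:**
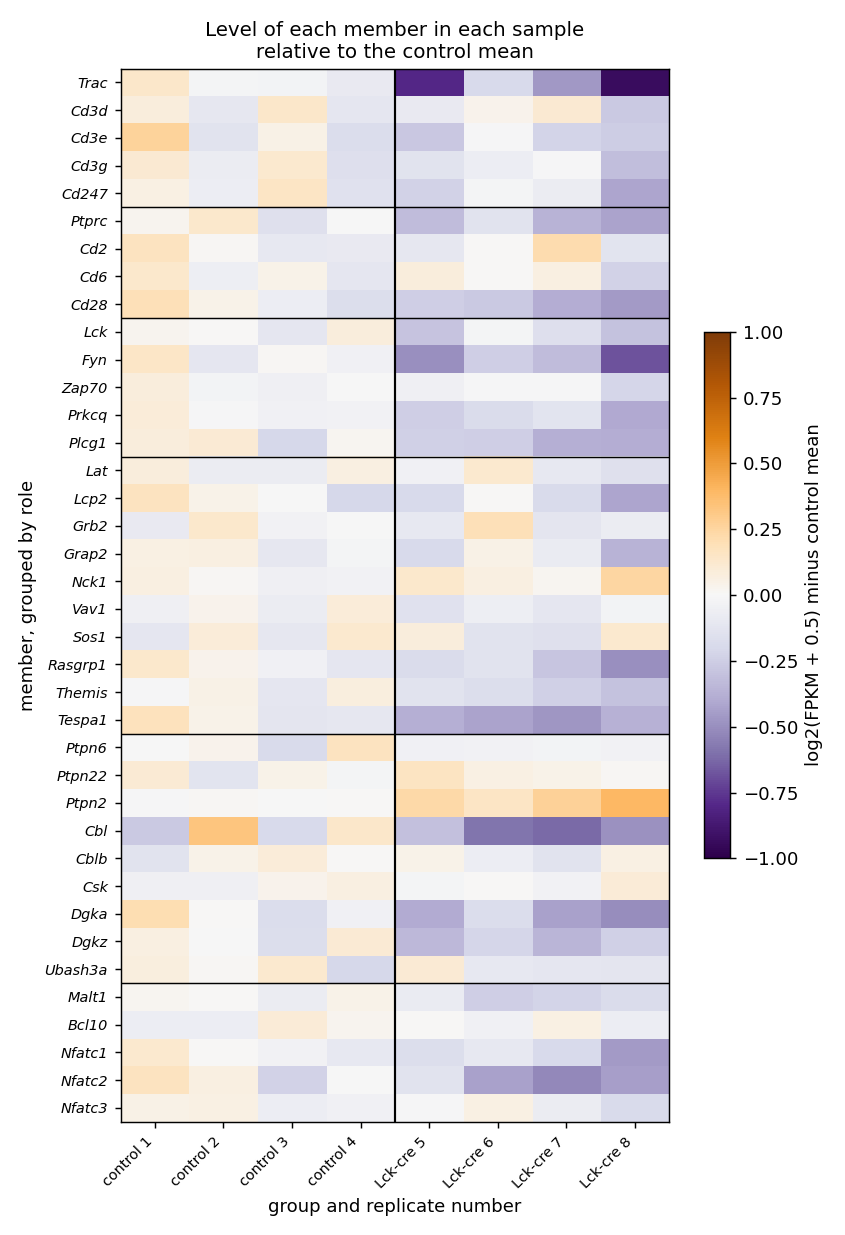
Log2(FPKM + 0.5) of each member (rows, grouped by role) in each sample (columns), minus the mean of the 4 controls; purple is lower and orange is higher. The Lck-cre columns are mostly purple, the row of Ptpn2 is orange in all 4 of them, and replicate 8 has the lowest Lck-cre value in 24 of 38 members.

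Of 56 further genes of the TCR pathway, 54 were tested, 11 fell and 1 rose, or 22.2% called, against 25.8% of all genes. The share lower was 20.4% against 10.4%, and the median log2 change was -0.11. This list too was chosen with earlier results of these data known. The 4 falls with the smallest adjusted p were Pag1, a membrane adaptor that anchors Csk (47.3 ± 4.89 to 34.1 ± 3.40 FPKM; log2 change -0.47, SE 0.10, adjusted p = 0.0128 by limma), Pik3r1, Grap and Rasa2. Pik3r1, a regulatory subunit of PI 3-kinase, lay between 34.4 and 36.0 FPKM in the controls and between 28.4 and 30.3 FPKM with Lck-cre (log2 change -0.26, SE 0.055, adjusted p = 0.014 by limma), and its call held under all 18 alternatives. Grap, an adaptor related to Grb2, fell from 106 ± 2.88 to 86.4 ± 7.42 FPKM, and Rasa2, a GTPase-activating protein for Ras, from 13.4 ± 1.22 to 10.6 ± 0.390 FPKM (adjusted p = 0.0198 and 0.0219 by limma). Pik3cd, a catalytic subunit of PI 3-kinase, rose from 28.8 ± 1.68 to 35.7 ± 4.13 FPKM (log2 change 0.30, SE 0.078, adjusted p = 0.0235 by limma), a call that ended with TPM values (adjusted p = 0.0669). Without control replicate 1 or Lck-cre replicate 5 the list had 3 calls, all lower, without control replicate 2 also 3, without control replicate 4 it had 7, and without Lck-cre replicates 7 or 8 it had 6. The calls among all genes also dropped in these settings, from 3180 to between 647 and 2111. The calls of Grap, Rasa2 and Pik3cd ended without either female, without control replicate 2 and with no filter, and that of Rasa2 also without control replicate 4 or Lck-cre replicate 7 (adjusted p of 0.0504 to 0.0771, 0.0567 to 0.0847 and 0.065 to 0.0843 over the settings that ended them).

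Markers of DP cells and of other cell types moved in the same samples. Of the 8 DP markers 4 (Cd4, Rag1, Rag2 and Cd1d1) fell and Ptcra rose. Cd4, Cd8a and Cd8b1 are also among the further TCR pathway genes above, so the fall of Cd4 is counted in both lists. The summed level of the 8 DP markers spanned 4027 to 4361 FPKM over the controls, and 2998 to 3992 FPKM over the Lck-cre samples. Of 5 gamma delta T cell markers, the 3 tested (Trdc, Trgc1 and Trgc2) rose. Their sum spanned 30.0 to 31.4 FPKM over the controls and 51.1 to 95.2 FPKM over the Lck-cre samples, where it was lowest in replicate 6 and highest in replicate 8, as Sting1 was. Of 6 NK cell markers 2 were tested: Gzma rose, and Prf1 lay at 2.47, 1.98, 2.01 and 1.48 FPKM in the controls and at 0.953, 1.49, 1.55 and 0.463 FPKM in the Lck-cre samples (log2 change -0.67, 95% interval -1.22 to -0.12, adjusted p = 0.0692 by limma), lowest in replicate 8, where Gzma was highest. Ncr1 was listed at 0 in every sample, and Klrb1c, Klrd1 and Eomes were below 1 FPKM. The NK sum, nearly all of it Gzma, had control values of 18.3 to 29.2 FPKM and Lck-cre values of 36.4 to 89.3 FPKM. Of 9 myeloid or dendritic cell markers 6 were below 1 FPKM in every sample, with sums of 4.08 to 4.98 FPKM (controls) and 6.56 to 13.2 FPKM (Lck-cre). Cd74 and H2-Aa were called higher, from control levels of 0.778 to 1.01 and 0.244 to 0.509 FPKM. H2-Aa reached the minimum of 1 FPKM only in the Lck-cre samples, so its call depends on the filter. Itgam, the other marker tested, was not called (log2 change -0.027, adjusted p = 0.875 by limma). Of 7 markers of mature single positive cells 3 were tested, and Klf2 rose. Of 6 double negative markers 3 were tested and none of these was called, with sums of 6.31 to 8.97 FPKM (controls) and 7.49 to 12.8 FPKM (Lck-cre). Their log2 changes went both ways: 0.65 (Il2ra), 0.33 (Nrarp) and -0.29 (Cd44). Among those not tested, mean Hes1 was 0.501 FPKM (controls) and 2.06 FPKM (Lck-cre), and mean Cpa3 0.0112 and 0.265 FPKM. Mean Kit was 0.682 and 0.649 FPKM.

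The sums of the remaining lists overlapped between the groups. The B cell sum was nearly all Cd79b, at 12.4 to 16.9 FPKM (controls) and 7.86 to 15.5 FPKM (Lck-cre), and the other 5 B cell markers, Pax5 among them, were below 1 FPKM. The epithelial and stromal sum was nearly all Pecam1 and Epcam, at 47.0 to 58.5 FPKM (controls) and 54.9 to 62.1 FPKM (Lck-cre), and Foxn1 was below 1 FPKM. All 5 erythroid markers were below 1 FPKM in every sample. The part of other cell types or stages in the changes of the TCR genes was not tested.

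**Figure D5:**
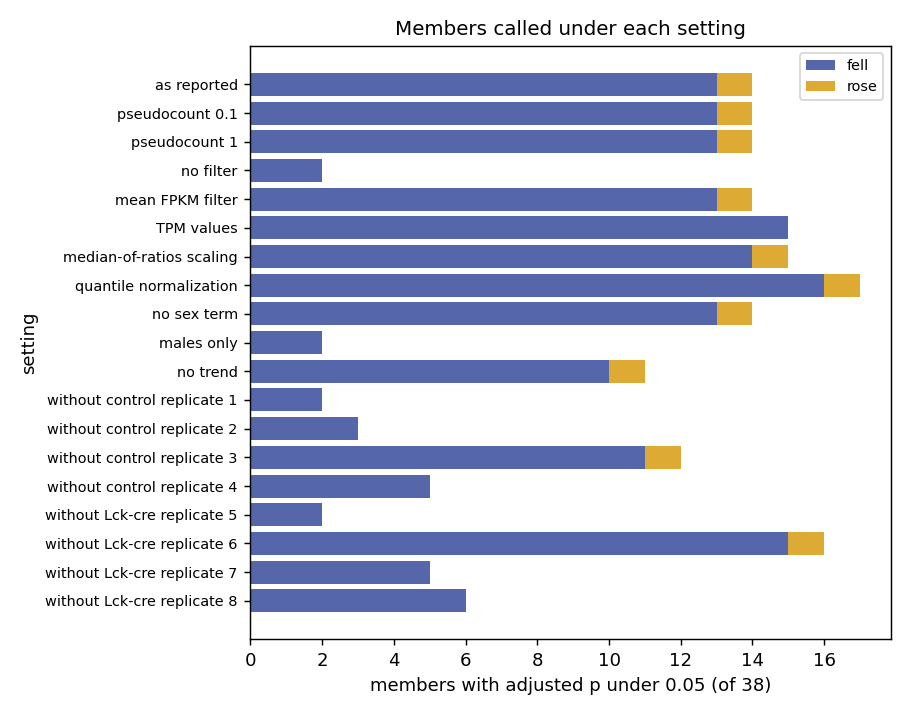
Number of the 38 members with an adjusted p under 0.05 (horizontal axis, from 0) as reported and under each of 18 alternatives, divided into those that fell and those that rose. The count is 14 as reported and lies between 2 and 17 over the alternatives. Over all tested genes, not drawn, it is 3180 as reported and between 647 and 3889 over the alternatives.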

How the data were processed

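RNA sequencing was done by a company on total RNA isolated on columns, per the labels' protocols. HISAT and Bowtie2 are named in the submitters' processing notes; the sources used here do not give their versions, the build, the annotation, the quantifier or the strandedness. Per the file headers, each table holds FPKM values, TPM values (which sum to 1000000 per sample) and per-base coverage (signal), all computed by the authors; entries sharing a gene ID were summed.

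The 12337 genes that reached 1 FPKM in 4 or more samples entered a two-sided limma test (version 3.58.1, R 4.3.3) of log2(FPKM + 0.5), with terms for genotype and sex and empirical Bayes with trend (prior degrees of freedom 4.17). Summaries used Python 3.11.15 and pandas 2.3.3. Pearson correlations of log2 values were 0.985 to 0.992 among controls and 0.983 to 0.991 among Lck-cre samples.

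The members and lists were chosen with earlier results of these data known. Values by sample are given for Sting1, the receptor chains, Lck, Zap70, Lat, Lcp2 and all called members; of the further pathway genes, up to 4 calls in each direction are named. On simulated data for this comparison with 12176 genes, the fit recovered 55% of genes changed by 0.4 (log2) and 100% of those changed by 1, with 10 false calls. The simulation changed far fewer genes than were called in the data, and its noise was drawn independently for each gene. Recovery and false calls in the data may therefore differ from these. The alternatives were a pseudocount of 0.1 or of 1, testing all genes above 0 without a filter, filtering on the mean, TPM, median-of-ratios scaling, quantile normalization, no sex term, males only, no trend, and each sample left out in turn. Count-based tests had been planned and could not be used on these units. Some items are not reported here.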

Additional observations from a re-analysis of the deposited data

Results flagged for a closer look

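A single sample stood apart from the other 3 of its group in 2 of 78 groups of 4 values checked (the 38 members and Sting1 in both groups), by a gap to its neighbour above the 95% critical value of Dixon's test; chance flags about 1 in 20 groups. Grb2 lay at 73.5 FPKM in Lck-cre replicate 6, and the other 3 Lck-cre samples lay at 59.0 to 61.0 FPKM. Ubash3a lay at 16.2 FPKM in Lck-cre replicate 5, the female, and the other 3 lay at 13.7 to 14.0 FPKM.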

How the results depend on the processing

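No paired analysis was possible because the replicate numbers 1 to 4 and 5 to 8 are not shared between the groups. Sting1 and the direction of the 14 called members held under all 18 alternatives. With no filter, limma called 1056 of 28851 genes, 2 members (Cd28 and Tespa1), 1 surface receptor, 1 adaptor or exchange factor and 1 further pathway gene, and 0 of the receptor chains, kinases and phospholipase, negative regulators and downstream effectors, where 1, 3, 4 and 3 had an unadjusted p under 0.05. In males only it called 652 genes, 2 members (Tespa1 and Cbl), 1 adaptor or exchange factor, 1 negative regulator, 3 further pathway genes and 0 of the other roles, where 1 receptor chain, 2 surface receptors, 3 kinases and phospholipase and 2 downstream effectors had an unadjusted p under 0.05. With no trend 1 adaptor or exchange factor was called. TPM values gave 3 downstream effectors, median-of-ratios scaling 2, and quantile normalization 2 of these and 2 receptor chains.

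With each sample left out in turn, limma called 647 to 3889 genes, 2 to 16 members, 0 to 1 receptor chains, 0 to 2 surface receptors, 0 to 3 kinases and phospholipase, 1 to 4 adaptors and exchange factors, 0 to 4 negative regulators, 0 to 2 downstream effectors and 3 to 14 further pathway genes. Signs turned in 11 members near 0, none of them called. Leaving out samples gave log2 changes of -0.11 to 0.020 (Cd3d), -0.086 to 0.085 (Cd2), -0.062 to 0.041 (Cd6), -0.093 to 0.019 (Grb2), -0.094 to 0.026 (Sos1), -0.10 to 0.024 (Ptpn6), -0.095 to 0.017 (Cblb), -0.015 to 0.030 (Csk), -0.11 to 0.0017 (Ubash3a) and -0.038 to 0.022 (Bcl10). In males only Cd2 was at 0.085. Ptpn22 was at -0.0061 with TPM values, and Csk at -0.064 with TPM values, -0.012 with median-of-ratios scaling and -0.011 with quantile normalization. The cause of these differences was not tested, beyond the larger number of genes tested with no filter and the fewer samples when some are left out. Without counts, the precision that depth gives cannot be stated.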

Other observations

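Ratios between related members were taken within each sample. Cbl over Cblb was 15.2, 20.4, 13.6 and 18.2 in the controls and 12.9, 11.6, 12.0 and 11.3 in the Lck-cre samples, with no overlap. Ptpn2 over Ptpn6, a ratio of a phosphatase that rose to one that did not pass the test, was 0.152, 0.150, 0.1731 and 0.136 in the controls and 0.185, 0.1734, 0.188 and 0.207 in the Lck-cre samples. The groups did not overlap, but control replicate 3 and Lck-cre replicate 6 were nearly equal. Nfatc3 over Nfatc2 was 23.6, 25.7, 29.5 and 25.4 in the controls and 28.6, 37.8, 37.0 and 32.1 in the Lck-cre samples, and Dgkz over Dgka was 1.36, 1.49, 1.51 and 1.66 in the controls and 1.56, 1.46, 1.58 and 1.80 in the Lck-cre samples, and both of these overlapped between the groups. The ratios do not depend on the scaling between samples, were chosen after the values were seen and have no test.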
